A study of Mus musculus with 24 samples.

Results

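RNA was sequenced from sorted mouse bone marrow stem and progenitor cells, and the wild-type (WT) libraries labelled MPP4 were compared with the WT libraries labelled HSC across all genes. The comparison rests on 6 of the 24 libraries of the study, chosen by their labels, 3 WT MPP4-labelled and 3 WT HSC (haematopoietic stem cell). The other libraries are WT MPP1 and MPP2 and the same populations from animals labelled knockout (KO), with 3 in each group, and WT and KO animals alike had been given tamoxifen. The protocol names bone marrow although the tissue field reads blood, and the cell subset field gives HSC for one group and MPP for the other. The labels give no age, sex or strain of mouse and no list of the antibodies behind each sort gate. Nor do they state that the 3 libraries in each group are from different mice. Every p-value here is therefore set against the spread among these libraries alone, and part of that spread may be technical. The gene deleted in KO animals is not named in the labels. It is taken to be Ddx6, an RNA helicase of P-bodies, from general knowledge of the study.

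Haematopoietic stem cells renew themselves and give rise to all blood lineages, and most of them are out of cell cycle in the adult. Multipotent progenitors (MPPs) stand just downstream: they divide more, have lost long-term self-renewal and are biased toward particular lineages. In the usual nomenclature MPP4 is the lymphoid-primed population, recognised by the receptor FLT3, whereas MPP2 is biased toward megakaryocytes and red cells. Transcription factors such as HLF and MECOM maintain the stem cell state, GATA1 and KLF1 drive the erythroid programme, and cycling cells switch on the genes of DNA replication and mitosis in turn.

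The libraries labelled MPP4 did not show the markers of lymphoid-primed MPP4 cells above the HSC libraries as a set. Flt3, the receptor that defines the population, stood at 81, 54.5 and 59.1 CPM in the MPP4-labelled libraries, against 70.7, 53.6 and 65.7 CPM in the HSC libraries. CPM are counts relative to the library total, which was scaled by the trimmed mean of M-values (TMM). The groups overlapped (log2 fold change 0.035 ± 0.12 SE, adjusted p = 0.934 by edgeR's quasi-likelihood test). In the WT MPP1 libraries Flt3 averaged 424 CPM and in the WT MPP2 libraries 1140 CPM, and the MPP4-labelled libraries differed from the MPP2 libraries by -4.13 ± 0.13 on the log2 scale (adjusted p = 4.17e-27). Dntt, the lymphoid DNA polymerase TdT, had 13.4, 16.4 and 24.3 CPM, against 13.3, 9.81 and 10 CPM in HSC, and was not called (adjusted p = 0.0942), although it was called higher with size factors (0.82, adjusted p = 0.0381), with no filter on low counts (0.68, 0.00885), at 20 CPM (0.87, 0.0142), in DESeq2 (0.82, 0.00449) and without MPP4-labelled replicate 1 (0.87, 0.0456). It averaged 568 CPM in WT MPP2. Satb1, a chromatin organiser of early lymphoid cells, had 32.3, 44.6 and 31.8 CPM, against 19.9, 26.8 and 23.4 CPM in HSC, and 585 CPM in WT MPP2. Its call (0.63 ± 0.18, adjusted p = 0.0114) was lost without MPP4-labelled replicate 2 (0.45, adjusted p = 0.162) and without HSC replicate 1 (0.53, adjusted p = 0.0886). The Satb1 call was also lost in limma-voom (0.63, adjusted p = 0.203) and in a fit of the 6 libraries alone (0.63, 0.215). Notch1, the receptor of T lineage entry, was lower (-1.06 ± 0.19, adjusted p = 3.70e-05).

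Other markers of the same list did rise. Il7r, the interleukin 7 receptor chain, had 33.2, 26.8 and 33.1 CPM in MPP4-labelled libraries, against 3.88, 1.86 and 4 CPM in HSC libraries (3.25 ± 0.39, adjusted p = 1.80e-08). Cd48, a surface protein that stem cells lack and most progenitors carry, had 34.4, 35 and 42.7 CPM, against 5.82, 7.43 and 2.29 CPM in HSC (2.83 ± 0.34, adjusted p = 2.55e-08). For both genes every MPP4-labelled library lay above every HSC library. They were nevertheless higher still in WT MPP2, at 73.7 and 85.4 CPM on average.

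The erythroid markers Gata1, Epor and Car1, which belong to the usual MPP2 population, were higher in the MPP4-labelled libraries than in HSC and WT MPP2 libraries (against WT MPP2, adjusted p = 2.08e-07, 2.02e-05 and 8.64e-20). Gata1, the master regulator of red cells and megakaryocytes, had 53.8, 28.5 and 41.7 CPM, against 3.05, 5.84 and 12.3 CPM in HSC (2.55 ± 0.48, adjusted p = 1.20e-04), and 2.84 CPM in WT MPP2. Epor, the erythropoietin receptor, had 20.3, 28.2 and 26.3 CPM, against 8.87, 2.65 and 3.71 CPM in HSC (2.29 ± 0.52, adjusted p = 0.00157), and 2.77 CPM in WT MPP2. Car1, a carbonic anhydrase of early erythroid cells, had 349, 346 and 290 CPM, against 28.8, 26.3 and 20.6 CPM in HSC (3.70 ± 0.20, adjusted p = 1.04e-18), and 21.9 CPM in WT MPP2. In these 3 genes the MPP4-labelled and HSC libraries did not overlap. WT MPP1 libraries carried them too, at 23.2, 22.9 and 210 CPM, and against WT MPP1 the differences were 0.83 ± 0.44 (adjusted p = 0.392), 0.12 ± 0.48 (adjusted p = 0.958) and 0.65 ± 0.17 (adjusted p = 0.0119). Slamf1 (CD150), which marks stem cells and MPP2, had 35.6, 34.8 and 53 CPM, against 75.4, 74 and 68.9 CPM in HSC, below it without passing the test (-0.83 ± 0.33, adjusted p = 0.119), but it was called lower with no filter on low counts (-0.84, adjusted p = 0.00389), in limma-voom (-0.86, 0.0203) and in a fit of the 6 libraries alone (-0.83, 0.0161). It averaged 9.7 CPM in WT MPP1 and 7.86 CPM in WT MPP2. Itga2b (CD41) had 68.1, 75.3 and 73.5 CPM, against 41.8, 47.2 and 32.3 CPM in HSC, and was not called (adjusted p = 0.215), except in limma-voom (0.83, adjusted p = 0.0303) and in the fit of 6 libraries (0.83, 0.0136). Pf4, Cd52 and Fcer1a, markers of platelets, lymphocytes and mast cells, averaged 3.87, 3.44 and 1.29 CPM in the MPP4-labelled libraries, and 3.19, 1.71 and 2.51 CPM in the HSC libraries. The libraries are therefore called by their label, MPP4-labelled, and no other cell type name is given to them. Which population lies behind the label was not tested.

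**Figure D1:**
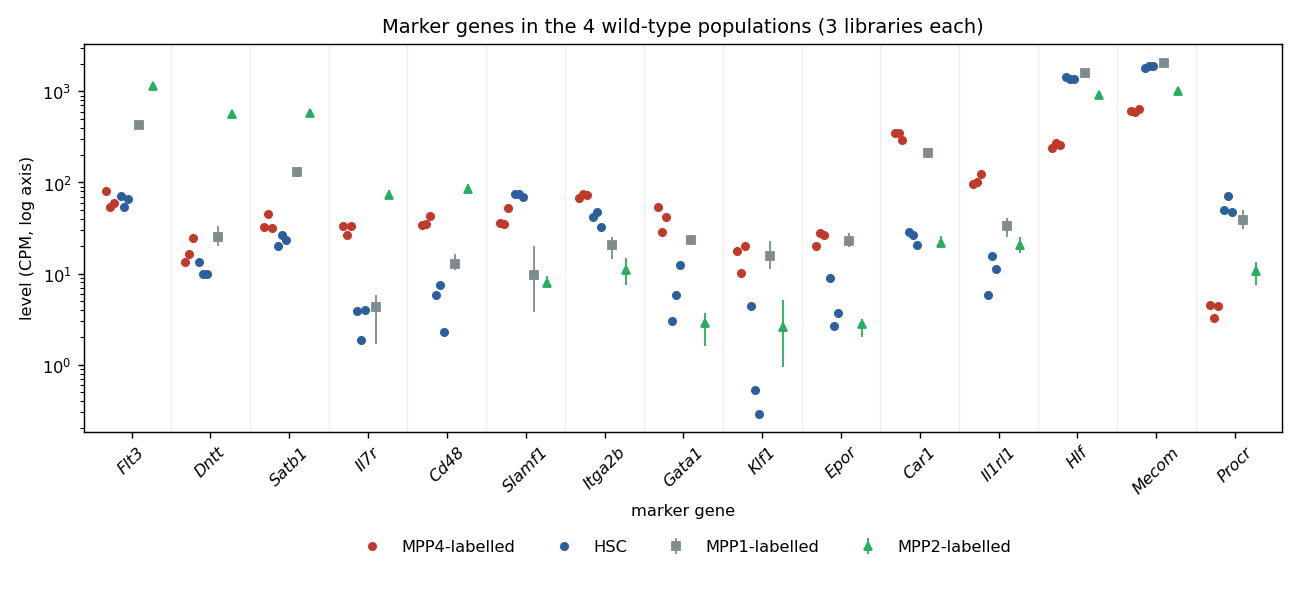
Levels of 15 marker genes in the 4 WT populations, in CPM on a log axis. Red points are the 3 MPP4-labelled libraries and blue points the 3 HSC libraries, while grey squares (MPP1) and green triangles (MPP2) are means with the range of 3 libraries. Flt3, Dntt and Satb1 are highest in the MPP2-labelled group, while Gata1, Epor, Car1 and Il1rl1 are highest in the MPP4-labelled group.

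The MPP4-labelled libraries held 2540511 to 3130018 counts and the HSC libraries 3284501 to 3507645, with 28623 to 28804 genes detected in MPP4-labelled and 28657 to 29359 in HSC libraries. Libraries of a group correlated at 0.923 to 0.951 and libraries of different groups at 0.825 to 0.834 (Pearson's r of log2 CPM across genes, a description). The chi-square of counts between libraries of a group was 6.57 to 8 per gene, where sampling noise alone gives about 1. No pair was therefore the same library sequenced again. Separate libraries made from the same cells or mouse can also exceed 1, so the value cannot tell whether the libraries are from different mice. A broad background ran through the libraries: from the counts of 1475 olfactory and vomeronasal receptor genes, which blood cells are not known to use, it came to an estimated 30.5 ± 0.379% of counts in MPP4-labelled and 22.4 ± 1.82% in HSC libraries (SD, n = 3 each). A fit with this background subtracted is given wherever it ends a call. Ddx6 had 50.2, 49.3 and 59.1 CPM in MPP4-labelled libraries, against 67.1, 55.2 and 64 CPM in HSC libraries (-0.23 ± 0.19, adjusted p = 0.575). In KO-labelled libraries it averaged 64.4 CPM in MPP4 and 76 CPM in HSC, no lower than in WT, and the libraries are called KO-labelled for that reason.

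Across 21964 genes tested, 640 (2.91%) were higher and 1633 (7.43%) lower in MPP4-labelled than in HSC libraries at an adjusted p below 0.05 by edgeR with Benjamini-Hochberg adjustment, 10.3% in all. Stem cell regulators and stem cell surface genes fell, genes of erythroid cells and of mitosis rose, and a set of immunoglobulin transcripts rose from near 0 in HSC libraries. The split between rises and falls depended on scaling: rises were 28.2% of the calls here, 38.1% after background subtraction, 44.6% with median-of-ratios size factors, 47.4% in DESeq2 and 52.7% among genes of at least 20 CPM. After subtraction 810 of 18925 genes (4.28%) were higher and 1317 (6.96%) lower, 11.2% in all. The median log2 fold change of all genes was 0.046, and 0.172 with size factors. Of the 640 higher genes 633 could be tested after subtraction and 539 stayed called, and of the 1633 lower genes 1232 stayed called, with 0 turning direction. Among genes above 64 CPM, 311 of 3404 were higher and 901 lower, and among genes below 8 CPM, 44 of 8531 were higher and 40 lower.

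**Figure D2:**
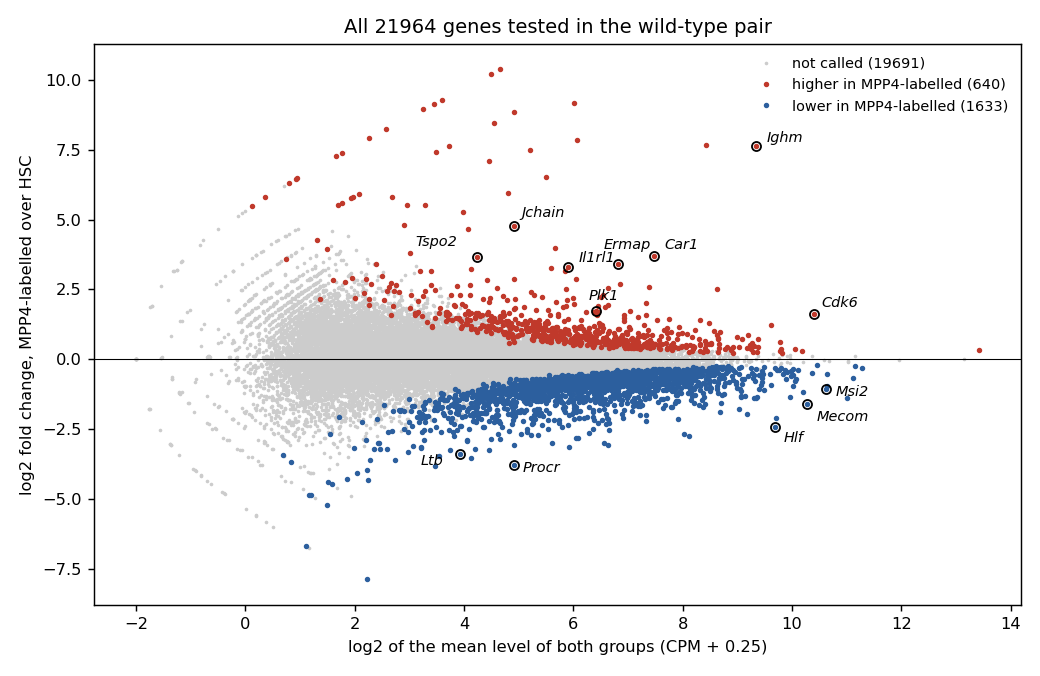
Each point is 1 of the 21964 genes tested. The x axis is the log2 of the mean level of both groups (CPM + 0.25) and the y axis the log2 fold change of MPP4-labelled over HSC libraries. Red points are the 640 genes called higher and blue points the 1633 called lower, the lower calls lying mostly at intermediate and high levels.

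The largest rises among genes chosen by level, separation and background were led by Jchain, which joins the chains of secreted IgA and IgM and had 49, 56.9 and 68.3 CPM in MPP4-labelled libraries, against 1.66, 4.51 and 0 CPM in HSC libraries (4.77 ± 0.51, adjusted p = 9.18e-10). Several of the 12 belong to red cells. Tspo2, an erythroid member of the translocator protein family, had 45.4, 26.8 and 31.4 CPM, against 0.277, 6.37 and 1.43 CPM in HSC (3.65 ± 0.64, adjusted p = 3.31e-05). Kel, the Kell blood group protein, had 88.2, 67.3 and 104 CPM, against 9.97, 11.9 and 4.86 CPM in HSC (3.27 ± 0.43, adjusted p = 1.46e-07). Pklr, the pyruvate kinase of red cells and liver, had 127, 137 and 86.8 CPM, against 13, 18.3 and 16 CPM in HSC (2.89 ± 0.34, adjusted p = 1.32e-08). That these 3 genes keep the groups apart was a condition of their choice. Atp1b2, a sodium pump subunit, had 84.9, 84.8 and 113 CPM, against 8.59, 4.24 and 5.14 CPM in HSC (3.97 ± 0.45, adjusted p = 4.33e-09). The odorant receptor genes Olfr248 and Olfr417 also rose (3.81 ± 0.89 and 2.86 ± 0.40). Olfr417 had 56.5, 43.5 and 57.1 CPM, against 6.37, 6.63 and 8.57 CPM in HSC, and Olfr248 3.29, 19.7 and 20.8 CPM, against 0.277, 1.86 and 0.857 CPM in HSC, and both belong to the gene class that served to estimate the background. The remaining rises, Car1, Ermap, Il1rl1, Il7r and Mpo, are described with their lists.

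The largest fall by the same rule was that of Procr, the endothelial protein C receptor that marks long-term stem cells, with 4.48, 3.28 and 4.44 CPM in MPP4-labelled libraries, against 49.3, 70.3 and 46.9 CPM in HSC libraries (-3.76 ± 0.43, adjusted p = 4.43e-09). Ltb, lymphotoxin beta, had 2.99, 1.09 and 3.76 CPM, against 25.5, 28.6 and 28 CPM in HSC (-3.39 ± 0.54, adjusted p = 6.66e-06). Nkx2-3, a homeobox factor, had 1.49, 3.01 and 7.17 CPM, against 26, 34.7 and 26 CPM in HSC (-2.90 ± 0.54, adjusted p = 8.32e-05). The rule required that no MPP4-labelled library reach the lowest HSC library in these genes. Npr2, a natriuretic peptide receptor, had 3.59, 2.46 and 1.37 CPM, against 24.9, 25.5 and 21.4 CPM in HSC (-3.24 ± 0.50, adjusted p = 3.29e-06). Ccm2l, a partner of an endothelial signalling complex, had 32.6, 17.5 and 13.3 CPM, against 144, 174 and 183 CPM in HSC (-2.97 ± 0.31, adjusted p = 4.41e-10). The other falls by the same rule were Ifitm7 (-3.23 ± 0.48), Syde1 (-3.21 ± 0.51), Tbkbp1 (-3.14 ± 0.25), Tmem38a (-3.08 ± 0.59), Abcg3 (-3.06 ± 0.28), Hid1 (-3.05 ± 0.48) and Maged1 (-2.83 ± 0.37), all on the log2 scale with their SE.

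Genes of the erythroid lineage were higher in MPP4-labelled libraries as a group. Of 29 tested, 19 were higher and 3 lower, where 2.91% and 7.43% of all genes were, and their median log2 fold change was 1.63, against 0.046 over all genes. After background subtraction 16 were higher and 1 lower. Ermap, a red cell membrane protein, had 187, 212 and 220 CPM, against 19.7, 18 and 19.7 CPM in HSC (3.43 ± 0.28, adjusted p = 1.03e-12). Klf1, the erythroid Krüppel-like factor, had 17.6, 10.1 and 20.2 CPM, against 4.43, 0.531 and 0.286 CPM in HSC (3.16 ± 0.82, adjusted p = 0.00598). The Klf1 groups did not overlap, but the call was lost after background subtraction (3.68, adjusted p = 0.088) and without HSC replicate 2 (2.73, adjusted p = 0.0556) or 3 (2.67, adjusted p = 0.0548). Aqp1, a water channel of red cells, had 109, 79.1 and 108 CPM, against 15, 21.2 and 14.9 CPM in HSC (2.53 ± 0.31, adjusted p = 2.40e-08). Beta globin Hbb-bs had 164, 158 and 153 CPM, against 35.2, 44.3 and 43.4 CPM in HSC (1.95 ± 0.17, adjusted p = 5.77e-12), higher in every MPP4-labelled library. The alpha globin genes Hba-a1 and Hba-a2 are near-identical copies whose reads cannot be assigned with certainty.

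Some erythroid members moved the other way. Nfe2, a factor of megakaryocytes and red cells, had 103, 93.3 and 115 CPM in MPP4-labelled libraries, against 188, 260 and 238 CPM in HSC libraries (-1.14 ± 0.14, adjusted p = 2.18e-08). The other lower members, Epb41 (-0.39 ± 0.087) and Zfpm1 (-0.38 ± 0.12), named after their values were seen, lost the call after subtraction (-0.26, adjusted p = 0.0654, and -0.22, adjusted p = 0.349). Gata1 and Epor lost theirs only where subtraction was joined to leaving out an HSC library: Gata1 without HSC replicate 1 (2.78, adjusted p = 0.0515) or 2 (3.25, 0.0669), and Epor without HSC replicate 2 (2.34, 0.0607) or 3 (2.44, 0.0606). Against the other progenitors the erythroid list gave other counts: compared with WT MPP1, where 1.59% of all genes were higher and 4.79% lower, 2 members were higher and 4 lower, and compared with WT MPP2, where 10.7% were higher and 16.6% lower, 17 were higher and 1 lower.

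The promoters of Ermap and Klf1 are shown because both genes rose with Gata1 and each holds a word that GATA factors bind. The sequences are RefSeq promoters of GRCm38.p6, from 250 bases before to 50 after the start, 5′ to 3′ on the strand of the gene, Ermap at chr4:119189946-119190245 on the minus strand and Klf1 at chr8:84901732-84902031 on the plus strand. Capitals mark the GATA word AGATAA, the same word ending in G (AGATAG), the same word starting with T (TGATAA) and the word with both changes (TGATAG), on either strand. They share no bases with the other motifs searched.
Ermap: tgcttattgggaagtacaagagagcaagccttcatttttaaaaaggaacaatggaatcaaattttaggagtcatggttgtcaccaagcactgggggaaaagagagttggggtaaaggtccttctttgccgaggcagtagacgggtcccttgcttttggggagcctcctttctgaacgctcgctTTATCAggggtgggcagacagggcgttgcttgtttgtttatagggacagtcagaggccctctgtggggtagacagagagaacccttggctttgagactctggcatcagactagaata
Klf1: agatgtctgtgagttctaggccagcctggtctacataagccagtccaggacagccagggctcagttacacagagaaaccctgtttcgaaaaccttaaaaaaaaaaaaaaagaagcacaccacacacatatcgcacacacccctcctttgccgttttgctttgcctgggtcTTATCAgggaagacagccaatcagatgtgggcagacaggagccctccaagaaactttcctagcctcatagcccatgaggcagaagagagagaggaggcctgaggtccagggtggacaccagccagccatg
Each promoter holds 1 such word, as TTATCA on the strand printed. Of the 19 erythroid genes that were higher, 14 matched a promoter, and 10 of these (71.4%) held a word. Of all erythroid genes tested, called or not, 15 of the 21 matched (71.4%) held one too, so the share was not particular to the higher ones. Among all genes that were higher, 28.1% held a word, against 27.6% of tested genes. Counted by promoter, 29.8% of all 32851 did. A match describes the letters and is not a binding site, and Tspo2 held none in its window.

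Cell cycle genes, those of mitosis above all, were called higher in MPP4-labelled libraries. Of 43 G2 and mitosis genes tested, 32 were higher and 0 lower, where 2.91% and 7.43% of all genes were. Their median log2 fold change was 1.06, against 0.046 over all genes. The same counts came after background subtraction, 32 and 0. Mki67, the Ki-67 protein of proliferating cells, had 1120, 1030 and 1130 CPM, against 505, 432 and 473 CPM in HSC (1.21 ± 0.067, adjusted p = 2.56e-18). Plk1, the polo-like kinase of mitotic entry, had 118, 122 and 152 CPM, against 49.6, 27.3 and 40.6 CPM in HSC (1.74 ± 0.16, adjusted p = 2.25e-11). Top2a, the topoisomerase that untangles chromosomes, had 161, 180 and 187 CPM, against 90.9, 59.4 and 53.7 CPM in HSC (1.37 ± 0.14, adjusted p = 7.21e-10). None of these groups overlapped, which the choice of these genes by smallest p-value favours. Kif11, the motor that separates spindle poles, had 107, 126 and 144 CPM, against 49.3, 58.6 and 43.7 CPM in HSC (1.31 ± 0.16, adjusted p = 2.16e-08). Anln, the cytokinesis protein anillin, had 106, 81.6 and 117 CPM, against 42.7, 37.7 and 34.3 CPM in HSC (1.41 ± 0.19, adjusted p = 2.68e-07). Compared with WT MPP1, 18 of the list were higher and 0 lower, where 1.59% and 4.79% of all genes were. Compared with WT MPP2, 0 were higher and 10 lower, where 10.7% and 16.6% of all genes were.

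Promoters of Plk1, Kif11 and Top2a are shown because many mitotic genes carry CCAAT boxes, bound by NF-Y, beside a cell cycle homology region (CHR, TTTGAA). They are RefSeq promoters of GRCm38.p6 over the same window, 5′ to 3′ on the strand of the gene, Plk1 at chr7:122159185-122159484 (plus), Kif11 at chr19:37376132-37376431 (plus) and Top2a at chr11:99024140-99024439 (minus). Capitals mark CCAAT and TTTGAA, read on both strands (also ATTGG and TTCAAA), with no bases shared between them.
Plk1: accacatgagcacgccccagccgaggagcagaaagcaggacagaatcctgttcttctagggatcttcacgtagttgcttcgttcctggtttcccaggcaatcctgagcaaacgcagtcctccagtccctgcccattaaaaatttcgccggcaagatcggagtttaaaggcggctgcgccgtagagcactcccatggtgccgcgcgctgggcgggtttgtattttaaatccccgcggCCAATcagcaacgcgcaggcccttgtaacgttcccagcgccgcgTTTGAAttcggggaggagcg
Kif11: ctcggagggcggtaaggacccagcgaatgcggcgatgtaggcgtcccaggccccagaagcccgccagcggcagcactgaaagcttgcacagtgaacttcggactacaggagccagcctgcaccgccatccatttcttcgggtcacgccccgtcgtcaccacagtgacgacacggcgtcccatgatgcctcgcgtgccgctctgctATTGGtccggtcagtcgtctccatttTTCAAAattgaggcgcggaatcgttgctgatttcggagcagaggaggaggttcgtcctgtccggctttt
Top2a: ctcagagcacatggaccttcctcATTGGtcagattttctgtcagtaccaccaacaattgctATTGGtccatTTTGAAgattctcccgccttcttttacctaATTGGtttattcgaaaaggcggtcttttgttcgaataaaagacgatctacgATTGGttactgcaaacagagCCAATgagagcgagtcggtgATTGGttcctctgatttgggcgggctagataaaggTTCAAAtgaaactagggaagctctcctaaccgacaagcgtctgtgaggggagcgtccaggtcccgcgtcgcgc
Top2a holds 6 CCAAT boxes and 2 CHR words, and Plk1 and Kif11 hold 1 of each. Of the 32 mitotic genes that were higher, 27 matched a promoter, of which 20 (74.1%) held CCAAT and 22 (81.5%) TTTGAA. Of all 37 mitotic genes tested that matched, called or not, 73.0% held CCAAT and 75.7% TTTGAA. Among all tested genes 42.3% held CCAAT and 17.5% TTTGAA, and of all promoters 37.4% and 17.9% did. In the DNA replication genes that were higher, 9 of 12 (75.0%) held CCAAT but 1 of 12 (8.33%) TTTGAA. Of all 34 replication genes tested that matched, 67.6% held CCAAT and 11.8% TTTGAA.

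Some DNA replication genes also rose. Of 41 tested, 14 were higher, 1 lower and 26 not called, where 2.91% of all genes were higher and 7.43% lower, with a median log2 fold change of 0.49. Pola1, the catalytic subunit of polymerase alpha, had 299, 269 and 302 CPM, against 147, 124 and 123 CPM in HSC (1.14 ± 0.10, adjusted p = 1.10e-11). Mcm6, a subunit of the replicative helicase, had 95, 94.4 and 96.3 CPM, against 62.3, 63.1 and 39.7 CPM in HSC (0.79 ± 0.16, adjusted p = 4.36e-04). Both stood higher in every MPP4-labelled library, but both were chosen for small p-values. Pole (0.78 ± 0.14), the leading-strand polymerase, and Prim2 (0.81 ± 0.16), a primase subunit, rose likewise, whereas Chaf1b, a histone chaperone that loads new nucleosomes, fell (-0.71 ± 0.15, adjusted p = 4.68e-04).

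Regulators of the G1 phase split. Of 25 tested, 4 were higher and 5 lower, where 2.91% and 7.43% of all genes were, and their median was 0.18. Cdk6, the G1 kinase that sets how fast stem cells leave quiescence, had 2070, 1950 and 2100 CPM, against 650, 625 and 707 CPM in HSC (1.63 ± 0.059, adjusted p = 9.20e-25). E2f8, an atypical E2F repressor, had 104, 134 and 149 CPM, against 39.6, 39.8 and 49.7 CPM in HSC (1.58 ± 0.18, adjusted p = 9.35e-09). Cyclins of G1 moved the opposite way: Ccnd3, cyclin D3, had 351, 356 and 296 CPM, against 617, 783 and 648 CPM in HSC (-1.03 ± 0.10, adjusted p = 2.36e-10), and Ccnd2, cyclin D2, fell too (-0.84 ± 0.12, adjusted p = 1.59e-06). Cdkn1c, which encodes the inhibitor p57 that holds stem cells in quiescence and was named after its values were seen, had 1, 0 and 0 counts, against 9, 25 and 21 counts in HSC (adjusted p = 0.00728).

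Most transcription factors of the stem cell were called lower in MPP4-labelled libraries. Of 26 tested, 0 were higher and 15 lower, where 2.91% and 7.43% of all genes were, with a median log2 fold change of -0.73. Hlf, the bZIP factor most closely tied to the stem cell, had 240, 273 and 261 CPM, against 1420, 1350 and 1370 CPM in HSC (-2.42 ± 0.065, 5.36-fold lower, adjusted p = 1.25e-29). Mecom, which encodes EVI1, had 608, 601 and 639 CPM, against 1790, 1920 and 1900 CPM in HSC (-1.60 ± 0.062, adjusted p = 8.07e-24). In both genes the 3 MPP4-labelled libraries lay far below the 3 HSC libraries. Erg, an ETS factor needed for stem cell maintenance, had 626, 501 and 573 CPM, against 1360, 1420 and 1490 CPM in HSC (-1.33 ± 0.068, adjusted p = 2.77e-19). Meis1, the HOX cofactor, had 711, 689 and 798 CPM, against 1640, 1670 and 1580 CPM in HSC (-1.15 ± 0.064, adjusted p = 3.50e-18). Msi2, an RNA-binding protein of stem cells, had 1040, 980 and 1050 CPM, against 2190, 2210 and 2020 CPM in HSC (-1.06 ± 0.052, adjusted p = 5.23e-20). These 3 genes also kept the groups apart, having been chosen for small p-values.

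The order of levels across the WT populations was not the same for each factor. Hlf averaged 258 ± 16.6 CPM in MPP4-labelled, 1580 ± 47.9 in MPP1, 915 ± 16.8 in MPP2 and 1380 ± 35.2 in HSC libraries (SD, n = 3 each), so the MPP4-labelled group was the lowest of the 4. Mecom averaged 616 ± 19.9 CPM in MPP4-labelled, 2050 ± 86.2 in MPP1, 1010 ± 76.1 in MPP2 and 1870 ± 69 in HSC libraries, again lowest in the MPP4-labelled group. Compared with WT MPP1, 2 of the list were higher and 12 lower in MPP4-labelled libraries, where 1.59% and 4.79% of all genes were. Compared with WT MPP2, 6 were higher and 16 lower, where 10.7% and 16.6% of all genes were. Among Hox cluster genes, 10 of 33 could be tested and 15 were listed at 0 in all 6 libraries. Hoxa9 (-2.38 ± 0.39, adjusted p = 9.40e-06), Hoxa7 (-1.53 ± 0.26, adjusted p = 2.28e-05) and Hoxb3 (-2.30 ± 0.50, adjusted p = 9.17e-04) fell, and 0 rose.

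Many surface and niche genes of stem cells were called lower too. Of 29 tested, 0 were higher and 19 lower, where 2.91% and 7.43% of all genes were, with a median log2 fold change of -0.86. Eng, the TGF-beta coreceptor endoglin, had 134, 129 and 104 CPM, against 311, 389 and 338 CPM in HSC (-1.50 ± 0.12, adjusted p = 1.83e-13). Cxcr4, the receptor that retains cells in the marrow, had 35.3, 40.5 and 53.6 CPM, against 142, 167 and 128 CPM in HSC (-1.76 ± 0.17, adjusted p = 5.41e-11). In neither did the groups overlap, which their choice by smallest p-value favours. Angpt1, a niche ligand that stem cells make themselves, fell by less (-0.53 ± 0.056, adjusted p = 6.63e-10). Fgd5, a stem cell marker, had 65.8, 45.7 and 70.4 CPM, against 225, 244 and 246 CPM in HSC (-1.98 ± 0.23, adjusted p = 7.11e-09), and Ctnnal1 had 21.5, 28.2 and 23.9 CPM, against 58.2, 57 and 67.7 CPM in HSC (-1.31 ± 0.32, adjusted p = 0.00317). Vwf, von Willebrand factor of platelet-biased stem cells, had 113, 119 and 100 CPM, against 158, 180 and 153 CPM in HSC, but its call (-0.56 ± 0.17, adjusted p = 0.021) was lost after background subtraction (-0.59, adjusted p = 0.224) and with size factors (-0.43, adjusted p = 0.105). It was also lost at 20 CPM (-0.39, adjusted p = 0.0824), and without MPP4-labelled replicate 1 (-0.58, 0.0514) or 3 (-0.49, 0.108) or HSC replicate 2 (-0.49, 0.116).

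Among the 10 genes whose proteins are used to sort these cells, 2 were higher and 3 lower, where 2.91% and 7.43% of all genes were. The higher ones were Il7r and Cd48, and Procr fell most. Ly6a, which encodes SCA-1, had 14.3, 19.4 and 11.3 CPM, against 39.9, 31.3 and 23.4 CPM in HSC (-1.06 ± 0.25, adjusted p = 0.00228). Kit, the stem cell factor receptor, had 492, 572 and 576 CPM, against 784, 812 and 799 CPM in HSC (-0.55 ± 0.076, adjusted p = 5.58e-07). Both were lower in each MPP4-labelled library. Cd34 had 34.4, 68.1 and 48.5 CPM, against 48.5, 56.2 and 51.4 CPM in HSC, and Fcgr3 12, 4.93 and 7.52 CPM, against 3.32, 1.06 and 1.71 CPM in HSC, and neither passed the test (adjusted p = 0.948 and 0.0541). Fcgr3 was called higher with size factors (2.11, adjusted p = 0.0396), at 5 CPM in 3 libraries (2.00, 0.0451), in DESeq2 (2.13, 0.00968), and without MPP4-labelled replicate 2 (2.24, 0.0416) or HSC replicate 1 (2.52, 0.0443). In bulk libraries such as these, fewer cells of a type and less RNA per cell cannot be told apart.

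Lymphoid genes did not move as one. Of 23 lymphoid priming genes tested, 7 were higher and 6 lower, where 2.91% and 7.43% of all genes were, with a median of 0.31. Beside Il7r and Jchain, Tespa1, a thymocyte signalling protein, rose from low counts (188, 137 and 115, against 34, 48 and 29 in HSC; 2.12 ± 0.25, adjusted p = 1.35e-08). Lsp1, a leukocyte cytoskeletal protein, had 41.5, 35.9 and 32.1 CPM, against 133, 129 and 121 CPM in HSC (-1.80 ± 0.15, adjusted p = 7.27e-13), and fell together with Ltb and Notch1. Compared with WT MPP2, 1 of the list was higher and 19 lower in MPP4-labelled libraries, where 10.7% and 16.6% of all genes were. Compared with WT MPP1, 5 were higher and 10 lower, where 1.59% and 4.79% of all genes were.

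B lineage factors and receptor genes gave 5 higher and 4 lower of 20 tested, a median of 0.38, where 2.91% and 7.43% of all genes were. Ikzf1, the lymphoid factor Ikaros, had 717, 711 and 789 CPM, against 506, 590 and 503 CPM in HSC (0.47 ± 0.070, adjusted p = 1.94e-06). Pou2f2, the B cell factor OCT2, fell (-1.13 ± 0.22, adjusted p = 1.56e-04), as did Foxp1 (-0.31 ± 0.058, adjusted p = 8.71e-05). Pax5, the B cell commitment factor, had 83.1, 68.1 and 78.2 CPM, against 27.2, 39.5 and 50 CPM in HSC. Its call (adjusted p = 0.0451) was lost after background subtraction (2.11, adjusted p = 0.363) and with the replicate number as a block (0.96, 0.0575). It was also lost in every fit with a library left out but that without HSC replicate 3 (adjusted p = 0.0619 to 0.237). Background made up an estimated 49.3% of Pax5 counts in MPP4-labelled and 76.6% in HSC libraries. Cd79a, a signalling chain of the B cell receptor, had 5.08, 9.03 and 15 CPM, against 1.66, 1.06 and 2.57 CPM in HSC. Its call was also lost after subtraction (3.34, adjusted p = 0.0869) and with no filter on low counts (2.42, 0.0834). The same held without MPP4-labelled replicate 2 (2.48, 0.0553) or 3 (1.98, 0.165), and without HSC replicate 1 (2.40, 0.102) or 2 (2.18, 0.144). Cd74, the MHC class II invariant chain, fell (-1.51 ± 0.39, adjusted p = 0.00527) but not after subtraction (-1.47, adjusted p = 0.0762) nor without MPP4-labelled replicate 2 (-1.13, adjusted p = 0.0715). Rag1 and Rag2, the recombinase genes, and Ms4a1 (CD20) were listed at 0 in all 6 libraries, below the background estimated for them. Whether reads of these genes were counted at all is not known.

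Immunoglobulin transcripts were abundant in MPP4-labelled libraries and near 0 in HSC libraries. They held 0.356 ± 0.0331% of counts in MPP4-labelled and 0.0117 ± 0.00131% in HSC libraries (SD, n = 3 each). Ighm, the constant region of IgM, had 3975, 4478 and 4254 counts in MPP4-labelled libraries, against 10, 38 and 22 counts in HSC libraries (7.64 ± 0.16, adjusted p = 7.97e-34). Igha, the constant region of IgA, had 2243, 2390 and 2120 counts, against 8, 18 and 10 counts in HSC. Each MPP4-labelled library far exceeded every HSC library. Igkc, the kappa constant region, was listed at 0 in all 24 libraries. Kappa V segments did hold counts, so this 0 may not mean that the transcript was absent. The plasma cell genes Sdc1, Xbp1 and Prdm1 were not called, with adjusted p = 0.901, 0.484 and 0.353, and neither was the B cell factor Ebf1 (adjusted p = 0.171).

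The variable (V) segments with the most counts were shared by the 3 MPP4-labelled libraries. Of 80 V segments tested, 26 were higher and 1 lower, where 2.91% and 7.43% of all genes were. Segments entered the test by passing a count filter over the 8 groups, while HSC libraries held few V counts. Many could therefore enter only through groups where they are high, so the excess of rises is partly built in and is a description. In all, 20 had at least 50 counts in an MPP4-labelled library, and all 20 had at least 20 counts in each of the 3 and differed by less than 3-fold between them. Ighv5-16 had 472, 447 and 404 counts in MPP4-labelled libraries, against 2, 3 and 1 counts in HSC libraries, and Igkv19-93 had 487, 357 and 414 counts, against 0, 1 and 1 counts in HSC. The top 5 segments held 45.8% of all V counts in the MPP4-labelled libraries. Heavy chain V counts summed to 2199 to 2389 per MPP4-labelled library and 181 to 244 per HSC library, and kappa V counts to 1014 to 1236 per MPP4-labelled library and 88 to 105 per HSC library. These 20 segments were chosen for their counts in MPP4-labelled libraries, so their lower counts elsewhere are a description: 0 reached 20 counts in any WT HSC or WT MPP1 library, 5 did in WT MPP2, 6 in KO-labelled MPP4 and 12 in KO-labelled MPP2. Over all V segments, 4 heavy chain segments had at least 20 counts in an HSC library. Segments of at least 50 counts in their own libraries numbered 0 in WT HSC, 0 in WT MPP1, 8 in WT MPP2, 14 in KO-labelled MPP4 and 40 in KO-labelled MPP2. KO-labelled MPP4 libraries had an immunoglobulin share of 0.366%. V segments are near-identical paralogs, so the split of reads among them is uncertain. What share of cells carried these transcripts was not tested. Nor was it tested whether the shared segments came from the same cells or mouse.

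**Figure D3:**
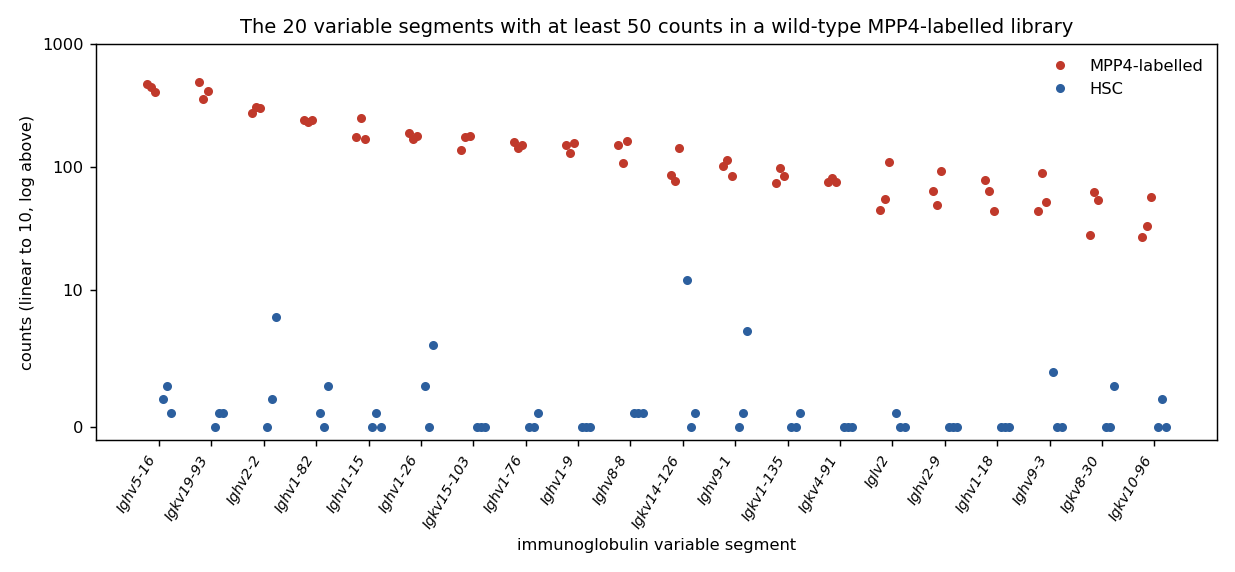
Counts of the 20 V segments with at least 50 counts in a WT MPP4-labelled library, on an axis linear to 10 and logarithmic above. Red points are the 3 MPP4-labelled libraries and blue points the 3 HSC libraries. The segments were chosen for their MPP4-labelled counts: all 20 have at least 20 counts in each MPP4-labelled library, and none of them reaches 20 in an HSC library, where 4 other heavy chain segments do.

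Of 25 megakaryocyte and platelet genes tested, 2 were higher and 7 lower with a median of -0.36, while 2.91% of all genes were higher and 7.43% lower. Mmrn1, the platelet protein multimerin, had 29.9, 27.6 and 32.1 CPM, against 168, 163 and 183 CPM in HSC (-2.52 ± 0.26, adjusted p = 4.40e-10). Fli1, the ETS factor of megakaryocytes, had 764, 663 and 688 CPM, against 1320, 1370 and 1410 CPM in HSC (-0.95 ± 0.065, adjusted p = 2.34e-15). Plek, the platelet signalling protein pleckstrin, rose (0.62 ± 0.18, adjusted p = 0.014), though not without HSC replicate 3 (0.59, adjusted p = 0.0584). After subtraction 2 were higher and 4 lower.

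Myeloid granule and receptor genes included rises from very low levels. Of 26 tested, 5 were higher and 3 lower, where 2.91% and 7.43% of all genes were, with a median of 0.21. Mpo, myeloperoxidase, had 99.5, 109 and 100 CPM, against 16.3, 8.75 and 9.43 CPM in HSC (3.16 ± 0.15, adjusted p = 5.56e-20). Elane, neutrophil elastase, had 6.28, 9.03 and 8.88 CPM, against 0, 0.265 and 3.43 CPM in HSC (2.71 ± 0.52, adjusted p = 1.60e-04), and Ms4a3 rose as well (2.16 ± 0.47, adjusted p = 7.48e-04). All 3 were higher in every MPP4-labelled library, and all 3 were chosen for small p-values. Csf3r, the G-CSF receptor, went down instead, with 50.5, 51.2 and 49.2 CPM, against 133, 133 and 143 CPM in HSC (-1.44 ± 0.13, adjusted p = 1.78e-11), and so did Hk3 (-1.25 ± 0.20, adjusted p = 8.06e-06). Compared with WT MPP1, 0 of the 26 granule and receptor genes were higher and 3 lower, where 1.59% and 4.79% of all genes were. Compared with WT MPP2, 0 were higher and 16 lower, where 10.7% and 16.6% of all genes were. Mpo averaged 132 CPM in WT MPP1 and 1530 CPM in WT MPP2. Among 16 myeloid transcription factors, 2 were higher and 3 lower. Spi1, which encodes PU.1, had 34.7, 51.2 and 50.6 CPM, against 128, 142 and 134 CPM in HSC (-1.56 ± 0.17, adjusted p = 7.59e-10), while Zeb2 rose (0.88 ± 0.095, adjusted p = 1.38e-09). Irf8, the monocyte and dendritic cell factor, rose (1.21 ± 0.35, adjusted p = 0.0154) although the groups overlapped. Its call was lost without MPP4-labelled replicate 1 (0.59, adjusted p = 0.419), HSC replicate 1 (1.09, 0.0825) or HSC replicate 3 (1.02, 0.105). It was also lost in limma-voom (1.08, adjusted p = 0.152) and in the fit of 6 libraries (1.21, 0.102).

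Of 19 mast cell, basophil and eosinophil genes, 4 were higher and 2 lower, where 2.91% and 7.43% of all genes were. Il1rl1, the interleukin 33 receptor ST2, had 97.1, 101 and 125 CPM, against 5.82, 15.7 and 11.1 CPM in HSC (3.30 ± 0.24, adjusted p = 1.76e-14). Cpa3, a mast cell carboxypeptidase, had 21.2, 21.1 and 34.2 CPM, against 4.99, 9.02 and 10.9 CPM in HSC (1.61 ± 0.33, adjusted p = 3.39e-04). Ms4a2, part of the high-affinity receptor for IgE, had 10.5, 6.84 and 11.6 CPM, against 0.277, 1.33 and 2 CPM in HSC (2.96 ± 0.56, adjusted p = 1.07e-04). The groups did not overlap in these genes. Prg2, an eosinophil granule protein, had 17, 9 and 4 counts, against 0, 0 and 0 counts in HSC, and is given without a fold because HSC libraries held no count; its call was lost after subtraction (adjusted p = 0.0661). Hgf fell (-0.97 ± 0.20, adjusted p = 4.29e-04).

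Immediate early genes, which answer a stimulus within minutes, moved both ways. Of 30 tested, 3 were higher, 7 lower and 20 not called, where 2.91% of all genes were higher and 7.43% lower, with a median of -0.75. Egr1 had 214, 171 and 178 CPM, against 463, 482 and 497 CPM in HSC (-1.35 ± 0.17, adjusted p = 4.18e-08). Fosb had 232, 166 and 233 CPM, against 602, 651 and 596 CPM in HSC (-1.55 ± 0.13, adjusted p = 9.71e-13). Zfp36, a protein that destabilises AU-rich mRNAs, fell too (-1.50 ± 0.29, adjusted p = 1.83e-04). Btg2, an antiproliferative gene, went against them (1.46 ± 0.30, adjusted p = 3.31e-04), as did the activation marker Cd69 (2.21 ± 0.35, adjusted p = 6.45e-06). Such genes also respond to cell handling, whose part was not tested.

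Growth and metabolism genes showed small shifts, beside shares over all genes of 2.91% higher and 7.43% lower. Of 49 nucleolar ribosome biogenesis genes, 5 were higher and 1 lower (median 0.26), and 8 were higher after subtraction. Npm1, nucleophosmin, had 714, 673 and 656 CPM, against 418, 395 and 407 CPM in HSC (0.74 ± 0.069, adjusted p = 2.68e-11), and Nop58 (0.75 ± 0.16), Ncl (0.44 ± 0.10) and Nolc1 (0.84 ± 0.20) rose with it. Of 62 oxidative phosphorylation genes, 4 were higher and 0 lower (median 0.29). Cyc1, cytochrome c1, had 55.3, 54.2 and 52.3 CPM, against 30.8, 40.1 and 28.3 CPM in HSC (0.71 ± 0.20, adjusted p = 0.0128). It lost its call without HSC replicate 1 (0.66, adjusted p = 0.062) or 3 (0.61, adjusted p = 0.0872). The call was also lost in limma-voom (0.71, adjusted p = 0.0563) and in the fit of 6 libraries (0.70, 0.072). Of 30 glycolysis and hypoxia genes, 1 was higher and 6 lower (median -0.24). Pkm, the pyruvate kinase of most tissues, had 40.1, 47.9 and 40.7 CPM, against 72.3, 81.7 and 90 CPM in HSC (-0.92 ± 0.16, adjusted p = 2.38e-05), and Slc2a1, the glucose transporter GLUT1, fell (-0.97 ± 0.20, adjusted p = 4.50e-04). Of 14 Myc network genes, 1 was higher, Myc itself (0.57 ± 0.12, adjusted p = 6.94e-04), and 3 were lower. Of 29 cholesterol genes, 0 were higher and 3 lower, led by the sterol sensor factor Srebf2 (-1.01 ± 0.10, adjusted p = 2.40e-10).

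Some interferon response genes and many antigen presentation genes were called lower, where 7.43% of all genes were. Of 38 type I interferon response genes, 0 were higher, 11 lower and 27 not called (median -0.44), and 7 were lower after subtraction. Oasl2, an oligoadenylate synthetase-like protein, had 61.9, 48.7 and 46.1 CPM, against 171, 169 and 144 CPM in HSC (-1.62 ± 0.16, adjusted p = 9.88e-11). Ddx58, the RNA sensor RIG-I, had 32, 36.4 and 41.3 CPM, against 89.5, 75.9 and 96.3 CPM in HSC (-1.25 ± 0.18, adjusted p = 5.29e-07). Both separated the groups, having been chosen for small p-values. Of 18 MHC genes, 1 was higher and 11 lower (median -0.87), and 8 were lower after subtraction. H2-D1, a classical class I gene, had 134, 181 and 182 CPM, against 309, 333 and 281 CPM in HSC (-0.89 ± 0.11, adjusted p = 2.91e-08). Nlrc5, the class I transactivator, had 271, 217 and 227 CPM, against 455, 447 and 411 CPM in HSC (-0.88 ± 0.10, adjusted p = 5.59e-09). Class I genes are close paralogs, so the values of H2-Q4 (-1.43 ± 0.19), H2-T22 (-1.66 ± 0.26) and H2-K1 (-0.57 ± 0.11) are uncertain as single genes.

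P-body components, listed because the title of the series names these granules of stored mRNA, gave 2 higher and 6 lower of 35 tested, a median of -0.24. Over all genes 2.91% were higher and 7.43% lower. Ago1, a small RNA effector, had 114, 77.7 and 103 CPM, against 153, 175 and 140 CPM in HSC (-0.67 ± 0.16, adjusted p = 0.00197). Mov10, an RNA helicase, fell (-0.87 ± 0.19, adjusted p = 0.00114), and Eif4e, the cap-binding protein, rose (0.47 ± 0.12, adjusted p = 0.00586). With size factors 2 were higher and 3 lower. Of 21 p53 target genes 1 was higher and 3 lower, with a median of 0.034 and Bbc3 (PUMA) among the falls (-2.00 ± 0.50, adjusted p = 0.00382).

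Markers of cells that the sort should leave out differed in level between lists. Over all genes 2.91% were higher and 7.43% lower. Of 19 mature T and NK cell genes tested, 0 were higher and 1 lower, and the summed level of the list was 149 to 195 CPM in MPP4-labelled and 161 to 208 CPM in HSC libraries. Of 14 mature B and plasma cell genes, 2 were higher and 0 lower, with sums of 253 to 285 CPM in MPP4-labelled and 196 to 231 CPM in HSC libraries. Those higher were Pax5 and Cd79a, and Ms4a1 and Igkc were listed at 0. Genes listed at 0 here may be ones whose reads were not counted. The mature B and plasma cell list leaves out Igha, which averaged 683 CPM in MPP4-labelled and 3.28 CPM in HSC libraries. Nor does it hold Ighm, at 1290 and 6.38 CPM, or Jchain, at 58.1 and 2.06 CPM. Of 19 monocyte, macrophage and dendritic cell genes, 0 were higher and 1 lower. Their sums were 346 to 387 CPM in MPP4-labelled and 270 to 291 CPM in HSC libraries, with Itgam listed at 0. Of 12 neutrophil genes, 1 was higher, Elane, and 1 lower, Csf3r, with sums of 93.6 to 110 CPM in MPP4-labelled and 162 to 187 CPM in HSC libraries. S100a8, a main neutrophil transcript, averaged 2.4 CPM in MPP4-labelled libraries, against 0.827 CPM in HSC libraries. Of 24 stromal and endothelial genes, 2 were higher and 4 lower, with sums of 720 to 832 CPM in MPP4-labelled and 1060 to 1120 CPM in HSC libraries. Pdgfrb, a receptor of perivascular cells, rose (1.58 ± 0.27, adjusted p = 2.18e-05), and Stab2, a scavenger receptor of sinusoids, rose but not after subtraction (3.55, adjusted p = 0.152) or without HSC replicate 3 (0.99, adjusted p = 0.0893). Their part in the results was not tested.

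**Figure D4:**
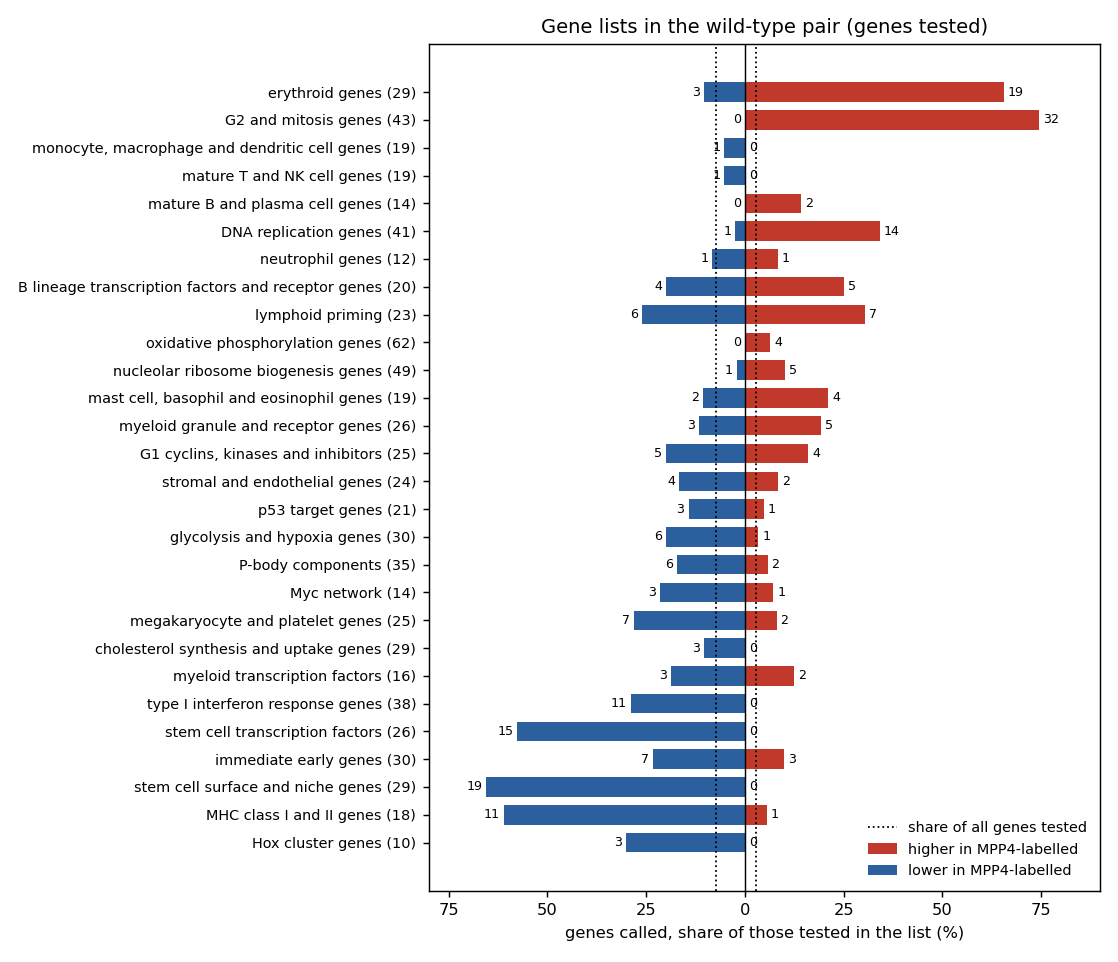
For 28 gene lists (number tested in brackets), the share of tested genes called higher in MPP4-labelled libraries is drawn to the right in red and the share called lower to the left in blue, in percent, with the counts beside the bars. Dotted lines give the shares of all genes tested, 2.91% higher and 7.43% lower. Erythroid and mitosis genes reach furthest to the right, and stem cell and MHC genes furthest to the left.

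The same pair of populations in KO-labelled libraries, which share no library with the WT pair, also had lower stem cell genes and higher erythroid and mitotic genes in MPP4. There 3858 genes (17.6%) were higher and 2677 (12.2%) lower in MPP4 than in HSC, and after background subtraction 768 (4.06%) and 966 (5.1%). The estimated background was 18.4% of counts in KO-labelled MPP4 and 5.56% in KO-labelled HSC libraries, a wider gap than in WT, and its part was not tested. Of the 640 genes higher in WT, 261 (40.8%) were higher in KO-labelled libraries, which is 6.77% of the 3858, and 44 were lower. Of the 1633 genes lower in WT, 1168 (71.5%) were lower in KO-labelled libraries, 43.6% of the 2677, and 13 were higher. After subtraction the shared calls were 263 of 810 higher (32.5%, or 34.2% of the 768) and 553 of 1317 lower (42%, or 57.2% of the 966).

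Stem cell factors fell in KO-labelled libraries with 21 of 26 called lower, and 14 of 29 erythroid and 18 of 43 mitosis genes were higher. In that pair 17.6% of all genes were higher and 12.2% lower. The median log2 fold change of mitosis genes was 0.49 there. Hlf had 618 ± 35 CPM in KO-labelled MPP4 and 1880 ± 89.9 CPM in KO-labelled HSC libraries (SD, n = 3 each), a difference of -1.61 ± 0.063 that was smaller than in WT by an interaction test (0.82 ± 0.088, adjusted p = 4.82e-09). Procr differed by -2.92 ± 0.43 in KO-labelled libraries, and its interaction was not called (adjusted p = 0.435). Car1 differed by 4.92 ± 0.24 there, with an interaction of 1.22 ± 0.31 (adjusted p = 0.00903) whose call was lost after background subtraction (adjusted p = 0.0515). Of the myeloid granule genes, 19 of 26 were higher in KO-labelled MPP4 than HSC, with a median of 2.19, and 13 after subtraction, against 5 in WT before and 5 after it. Of all genes, 17.6% were higher in the KO-labelled pair and 2.91% in the WT pair, and 4.06% and 4.28% after subtraction. The interaction was called for 8 of the 26, where it was called for 8.74% of all genes. Mpo averaged 286 ± 32.8 CPM in KO-labelled MPP4 and 5.01 ± 2.12 CPM in KO-labelled HSC libraries, and its difference exceeded the WT one by 2.67 ± 0.26 (adjusted p = 2.65e-10). Mast cell genes gave 12 higher and 2 lower of 19.

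The interaction, the KO-labelled difference minus the WT difference, was called for 1920 genes (8.74%), 1294 of them positive (5.89%) and 626 negative (2.85%), and for 496 (2.62%) after subtraction. Its smallest p-values among genes of at least 10 CPM belonged to Atp8b4, a phospholipid flippase, and to predicted genes. Atp8b4 averaged 128 ± 10.8 CPM in WT MPP4-labelled and 54.3 ± 5.01 CPM in WT HSC libraries, and 338 ± 30.4 CPM in KO-labelled MPP4 and 17.6 ± 1.66 CPM in KO-labelled HSC libraries, an interaction of 3.02 ± 0.16 (adjusted p = 4.07e-18). Cd34 differed by 1.61 ± 0.20 in KO-labelled libraries, with an interaction of 1.66 ± 0.28 (adjusted p = 4.94e-05), and Flt3 by 1.44 ± 0.13, with an interaction of 1.41 ± 0.18 (adjusted p = 3.47e-07). Flt3 averaged 84.5 ± 8.12 CPM in KO-labelled MPP4 and 31.1 ± 2.54 CPM in KO-labelled HSC libraries.

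**Figure D5:**
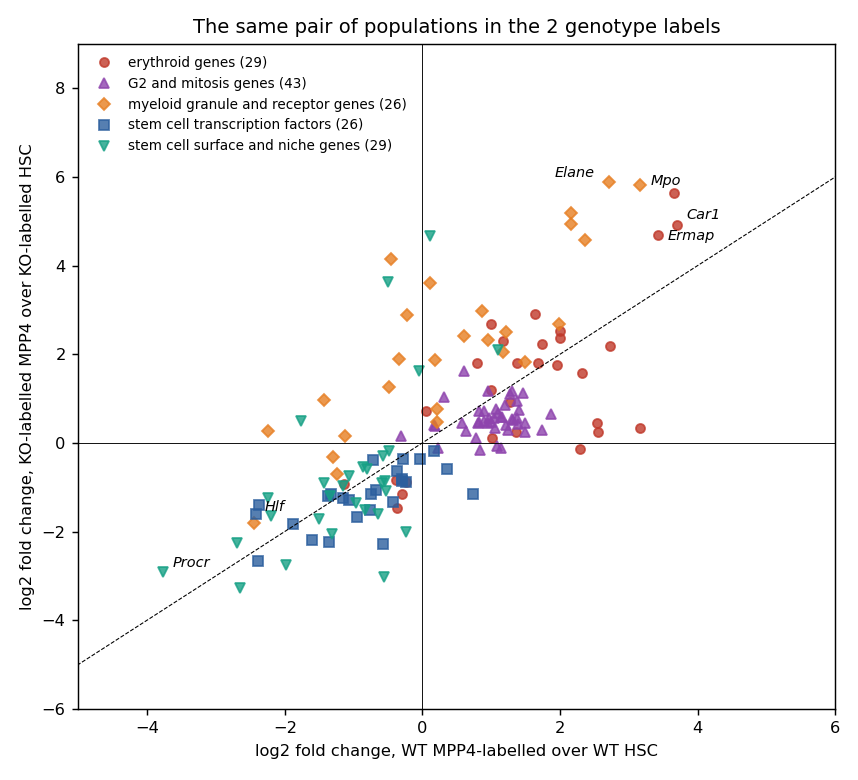
Each point is a tested gene of 5 lists, with the log2 fold change of MPP4-labelled over HSC libraries in WT on the x axis and in KO-labelled libraries on the y axis. The dashed line marks equal values. Myeloid granule genes lie mostly above the line, with Mpo at 3.16 and 5.83, and mitosis genes mostly below it.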

How the data were processed

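The authors deposited raw read counts, whole numbers for 56748 genes in 24 libraries, in 1 table with no normalization. The submitters' processing notes list mm39, SAMtools 1.12 and DESeq2 without saying what each tool did. The aligner, the counting program and its strand setting are not given in the sources used here, so overlapping and antisense genes cannot be told apart. Per the labels' protocols, RNA was extracted with a column kit and libraries were made with NEBNext Ultra II. Columns were matched to samples by the label that holds the column name.

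Genes were filtered with filterByExpr on the 8 groups and counts scaled by TMM (factors 1.16 to 1.18 in MPP4-labelled, 1.07 to 1.1 in HSC libraries). One quasi-likelihood model of 24 libraries was fitted in edgeR 4.0.16 under R 4.3.3 (16 residual degrees of freedom, biological coefficient of variation 0.393), with Benjamini-Hochberg adjustment over all 21964 genes. SE was derived from the F test, as the size of the log2 fold change divided by the root of F. Background was the counts of 1475 receptor genes per kb of gene span, times the span of each gene. Counts less this background, at 0 or above, were fitted again for 18925 genes. Spans came from a GRCm38 annotation that held 91.9% of the identifiers. Alternatives were DESeq2 1.42.0, limma 3.58.1 (voom), size factors, other filters, the 6 libraries alone, a replicate block and single libraries left out.

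The comparison and the 29 gene lists were chosen with earlier results of these data known. Genes named were the markers, the 12 largest rises and 12 largest falls (at least 10 CPM in the higher group, at least 4 counts in a library of the lower group, no overlap, called after subtraction, no predicted genes or segments), the 5 smallest p-values of each list, and the 5 smallest interaction p-values. Genes chosen by their p-value tend to keep the groups apart, so non-overlap in them adds no support to their calls. Promoter motifs were counted in Python 3.11.15. On simulated counts of 21964 genes for this comparison, 1 of 100 genes changed 1.5-fold and 35 of 100 changed 3-fold were recovered. At 20 CPM or more the numbers were 1 of 28 and 31 of 38, and 2 of 38 calls were false. Values of some genes on the lists are not reported here.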

Additional observations from a re-analysis of the deposited data

Results flagged for a closer look

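For 11 named genes the difference between MPP4-labelled and HSC libraries was not the same in KO-labelled and WT animals by the interaction test of edgeR, given as the KO-labelled difference minus the WT difference on the log2 scale. Hlf fell less in KO-labelled libraries (0.82, adjusted p = 4.82e-09; 1.02 after background subtraction). Cd48 rose more (2.65, adjusted p = 0.00217; 4.24 after subtraction), as did Mpo (2.67, adjusted p = 2.65e-10; 2.84 after subtraction) and Atp8b4 (3.02, adjusted p = 4.07e-18; 3.51 after subtraction). Flt3 (1.41, adjusted p = 3.47e-07) and Cd34 (1.66, adjusted p = 4.94e-05) were higher in MPP4 in KO-labelled libraries and not called in WT. Npr2 gave 2.47 (adjusted p = 0.00998). The predicted genes Gm10800 (1.45, adjusted p = 4.07e-18), Gm10801 (1.51, adjusted p = 1.75e-15) and Gm10718 (1.76, adjusted p = 1.88e-15) moved the same way, and Gm47283 gave -2.17 (adjusted p = 5.29e-15). The predicted genes averaged 12300, 2390 and 999 CPM in WT MPP4-labelled and 9710, 2170 and 778 CPM in WT HSC libraries.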

How the results depend on the processing

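The number of genes higher in WT MPP4-labelled than HSC libraries, 640, was 999 with median-of-ratios size factors, 1336 in DESeq2 and 1327 among 8522 genes of at least 20 CPM. Fewer genes tested is part of the construction of that last setting, and the cause of the others was not tested. With single libraries left out it was 496 to 548 (656 to 806 with background subtracted), and the number lower, 1633, was 1363 to 1428 (1000 to 1113 with background subtracted, including 1072 without MPP4-labelled replicate 3 and 1085 without HSC replicate 3). In KO-labelled libraries the 3858 higher genes became 1595 at 20 CPM, 2302 in a fit of 6 libraries and 768 after subtraction, and 3084 to 3558 with a library left out. The 2677 lower genes became 1627, 966 (after subtraction) and 2250 to 2467. The interaction had 496 calls after subtraction and 1577 to 1847 with a library left out.

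The labels do not say whether replicate numbers pair the libraries. Deviations of same-numbered libraries correlated at -0.028 to 0.026, which cannot settle it, since a weak shared effect could go unseen. With the replicate number as a block, 630 genes rose and 1637 fell in the WT pair, 3648 rose and 2665 fell in the KO-labelled pair, and 1857 had an interaction.

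Among named genes, 3403 recomputed values kept their side of the threshold, 254 lost a call, 55 gained one and 20 changed sign. Those that changed sign were never called: Flt3 (-0.16 to 0.15 with a library left out, -0.064 after subtraction without MPP4-labelled replicate 1), Cd34 (0.082 with size factors and in DESeq2, 0.13 at 20 CPM, 0.099 after subtraction, -0.33 to 0.17 with a library left out, and 0.38, 0.18, 0.060, 0.20 and 0.092 after subtraction with one left out), Cebpe (-2.42 to 0.50 with a library left out, 0 after subtraction without HSC replicate 3) and Pf4 (-0.63, -0.036 and -0.14 with a library left out, -0.49 after subtraction without MPP4-labelled replicate 3). Elane, Ms4a3 and Ly6a lost their calls in a fit of 6 libraries (adjusted p = 0.0764, 0.104 and 0.0562), and Foxp1 at 20 CPM (0.0548). Subtraction joined to a left-out library ended those of Ago1, Bbc3, Chaf1b, Ctnnal1, Foxp1, H2-K1, Ly6a, Mov10, Olfr248, Slc2a1 and Zfp36. Fits with background subtracted and a library left out, and fits without immunoglobulin genes, were chosen after seeing the data. In the simulation few 1.5-fold changes were recovered. It changed 100 genes 1.5-fold and 100 genes 3-fold and gave 38 calls, against 2273 in the data, so its recovery does not carry over. Smaller changes were called in the data by edgeR, such as Angpt1 (1.44-fold lower, adjusted p = 6.63e-10) and Ikzf1 (1.39-fold higher, adjusted p = 1.94e-06).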
